A study of Mus musculus with 4 samples.

Results

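The inflammatory effectors described here are 10 genes that macrophages usually raise after lipopolysaccharide (LPS), a bacterial cell wall component: Acod1, Saa3, Mir155hg, Hcar2, Lcn2, Mmp9, AW112010, Tnf, Nos2 and Ptgs2. They were chosen by name, with their change between the groups already in view, and each was found once among the 48795 genes of the count table through its Ensembl ID. Their change between groups is therefore given as a description, without a test. Expression was measured by RNA sequencing in C57BL/6 bone marrow-derived macrophages, primary cells grown from marrow for 5 days with 50 ng/ml of the growth factor M-CSF and 10% fetal bovine serum. The 2 groups were cells transfected with IRF2-specific siRNAs and cells transfected with a control siRNA, both at 50 nM and collected 48 h later, with 2 libraries each. An siRNA lowers a matching mRNA and does not delete the gene, and the labels name neither LPS nor any other stimulus in either group. Whether the 2 libraries of a group came from different animals or cultures is not stated, so a p-value here covers the variation between these libraries alone, and that could be technical.

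LPS is sensed by Toll-like receptor 4, whose adaptors activate the transcription factor NF-κB and, through interferon, a second wave of genes. Effector genes of this response make antimicrobial metabolites and proteins, lipid mediators, cytokines and regulatory RNAs, and are kept low in resting macrophages. IRF2, a member of the interferon regulatory factor family, occupies interferon-stimulated response elements and is best known for repressing genes that carry them.

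The libraries held 26378584 and 26895100 reads in genes with IRF2 siRNA, against 29862296 and 32273565 with control siRNA. Irf2 mRNA had 56.0 ± 0.108 CPM (counts scaled to library size by TMM) with IRF2 siRNA and 157.7 ± 8.66 CPM with control siRNA (SD, n = 2 each), 2.82-fold lower, in the direction of the labels. Of 8 macrophage markers, including Lyz2, Csf1r, Adgre1 and Cd68, 0 passed the edgeR test, 1 had an unadjusted p under 0.05 (Cd14, lower), which DESeq2 called and limma-voom did not, and their summed level was 25550 and 24280 CPM with IRF2 siRNA, against 26180 and 23690 CPM with control siRNA. Markers of T and NK cells, with 7 of 7 at 3 or fewer reads in every library, and of mast cells and basophils, with 4 of 5, were at or near 0. Erythroid markers summed to 0 and 0 CPM with IRF2 siRNA, against 0.103 and 0.799 CPM with control siRNA, B cell markers to 4.68 and 4.07 against 5.37 and 3.66 CPM, dendritic cell markers to 1.85 and 2.13 against 2.24 and 2.24 CPM, and fibroblast markers to 11.5 and 13.0 against 9.68 and 12.1 CPM. In bulk RNA, fewer cells of a type and less RNA per cell cannot be told apart.

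For the 9 effectors with enough reads to test, both IRF2 siRNA libraries lay above both control siRNA libraries. The same order of libraries was seen in 19.0% of the 13495 genes tested. For these 9 effectors the fitted difference ran from a log2 fold change of 0.43 for Tnf to 3.63 for Mir155hg. Nos2 had too few reads for the test, and its lowest IRF2 siRNA value could not be told apart from its higher control value. The levels of Acod1, Mir155hg, Hcar2 and AW112010 with IRF2 siRNA were more than 4 times those with control siRNA, while Tnf differed by 1.34-fold. Since the genes were picked with this contrast in view, nothing is read from these counts.

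**Figure D1:**
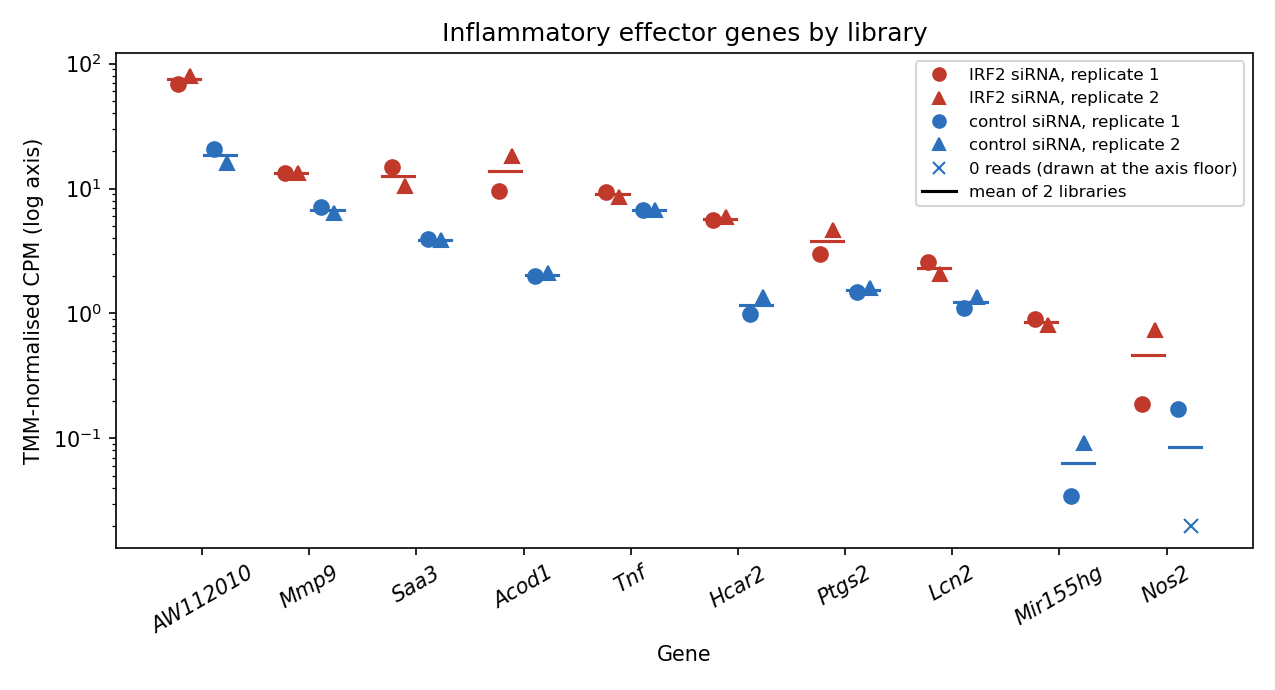
Level of each of the 10 effector genes in each library, as TMM-normalised CPM on a log axis, with genes ordered by mean level. Circles and triangles are replicates 1 and 2, bars are means of 2 libraries, and the cross is the control library with 0 Nos2 reads; AW112010 is highest in every library and the IRF2 siRNA points lie above the control siRNA points, except that the lower IRF2 siRNA value of Nos2, 0.189 CPM, is close to its higher control value, 0.172 CPM.

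Acod1 encodes aconitate decarboxylase, the mitochondrial enzyme that makes itaconate from an intermediate of the TCA cycle. The gene lies on chromosome 14 at 103046977 to 103056573 of GRCm38. It had 252 and 501 reads with IRF2 siRNA, against 58 and 68 with control siRNA, or 9.52 and 18.4 CPM against 1.998 and 2.09 CPM. The IRF2 siRNA libraries differed from each other by 1.93-fold, the control libraries by 1.05-fold, and the lower IRF2 siRNA library was still 4.55-fold above the higher control library. The fitted log2 fold change of 2.77 had a standard error of 0.34 and ranked 7 of 13495 among the genes tested. Without the higher IRF2 siRNA library, replicate 2, it was 2.22. The promoter is shown for its core element, with the only match among the 5 motifs searched in capitals, the TATA box TATAAA at bases -28 to -23 before the RefSeq start.
Acod1 promoter, chr14:103046762-103047061, plus strand: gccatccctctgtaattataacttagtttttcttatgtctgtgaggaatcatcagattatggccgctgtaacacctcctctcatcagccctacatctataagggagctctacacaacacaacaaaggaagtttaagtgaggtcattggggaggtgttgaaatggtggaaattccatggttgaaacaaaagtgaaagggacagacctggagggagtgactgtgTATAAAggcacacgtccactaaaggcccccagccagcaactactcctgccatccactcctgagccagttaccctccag

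Ptgs2 encodes cyclooxygenase-2, the inducible enzyme that starts prostaglandin synthesis. It had 80 and 126 reads with IRF2 siRNA, against 43 and 52 with control siRNA, or 3.02 and 4.62 CPM against 1.48 and 1.60 CPM. As for Acod1, IRF2 siRNA replicate 2 was the higher library, here by 1.53-fold, and the fitted log2 fold change of 1.31 had a standard error of 0.28. Nos2 encodes the inducible nitric oxide synthase. It had 5 and 20 reads with IRF2 siRNA, against 5 and 0 with control siRNA. The library with 0 reads allows a level of up to 0.0922 CPM, taking 3 reads as the limit. IRF2 siRNA replicate 1 and control replicate 1, with 5 reads each, had 0.189 and 0.172 CPM, with exact Poisson 95% intervals of 0.0613 to 0.441 and 0.0559 to 0.402 CPM, so they could not be told apart at this depth. The summed 25 and 5 reads gave a ratio of 5.73 with a 95% interval of 2.15 to 19.2. That interval covers counting error only and not the spread between replicates, and 20 of the 25 reads came from 1 library. It is not read as a test of this chosen gene.

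Saa3 encodes a serum amyloid A protein, an acute-phase apolipoprotein that macrophages make locally. The gene lies on chromosome 7 at 46711998 to 46715700 of GRCm38, on the minus strand. It had 394 and 284 reads with IRF2 siRNA, against 114 and 125 with control siRNA, or 14.9 and 10.4 CPM against 3.93 and 3.84 CPM. In contrast to Acod1, replicate 1 was the higher IRF2 siRNA library, by 1.43-fold, and the log2 fold change of 1.70 had a standard error of 0.21. Its paralogs Saa1, Saa2 and Saa4 had 0 reads in all 4 libraries, although 25 of 520 windows of 36 bases in the main Saa3 transcript also occur in Saa1 or Saa2. The Saa3 promoter is shown because, among the 7 effectors with a promoter in the RefSeq table, it alone held the interferon-stimulated response element core, made of GAAA, any 2 bases and GAAA again, the kind of element that IRF proteins bind. The match, in capitals, lies at bases -125 to -116 before the RefSeq start.
Saa3 promoter, chr7:46715627-46715926, minus strand: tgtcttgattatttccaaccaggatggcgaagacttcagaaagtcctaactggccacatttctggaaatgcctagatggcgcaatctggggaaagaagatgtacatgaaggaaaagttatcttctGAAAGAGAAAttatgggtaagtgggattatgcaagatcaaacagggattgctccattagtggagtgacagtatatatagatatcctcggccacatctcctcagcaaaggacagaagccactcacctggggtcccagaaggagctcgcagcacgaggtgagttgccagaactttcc

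The ISRE core was found in 3.44% of the 32851 promoter windows of the same length, searched on both strands. The interferon-gamma-activated site TTCNNNGAA, found in 8.3% of all windows, and the AP-1 motif TGANTCA, found in 7.81%, matched none of the 7 effector windows. A match is a string of letters, not a binding site, and a missing match says only that these letters are not in the window. Hcar2, Mmp9 and Nos2 had no window to search.

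Lcn2 encodes lipocalin 2, which binds bacterial siderophores and so withholds iron. It had 69 and 56 reads with IRF2 siRNA, against 32 and 44 with control siRNA, or 2.60 and 2.06 CPM against 1.10 and 1.35 CPM. Mmp9 encodes gelatinase B, a secreted metalloproteinase that cleaves denatured collagen and is bound by lipocalin 2 in humans. It had 354 and 361 reads with IRF2 siRNA, against 207 and 206 with control siRNA, or 13.4 and 13.2 CPM against 7.13 and 6.33 CPM. The IRF2 siRNA libraries were 1.01-fold apart for Mmp9 and 1.27-fold apart for Lcn2. The log2 fold changes were 0.92 for Lcn2 and 0.98 for Mmp9, with standard errors of 0.26 and 0.15.

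Lcn2 and Mmp9 are also stored in neutrophil granules, so neutrophil markers were read beside them. The 14 markers summed to 301.4 and 291.9 CPM with IRF2 siRNA, against 256.9 and 271.1 CPM with control siRNA, of which Csf3r made up 265 CPM on average and Ngp, Mmp8 and S100a9 between 2.59 and 4.95 CPM each. Of the 14, 6 could be tested and 0 passed in edgeR, 0 had an unadjusted p under 0.05, and 0 passed in DESeq2 or limma-voom. Retnlg had 0 reads in all 4 libraries, and Ly6g and Cxcr2 had 3 or fewer in each. The part of these cells in the Lcn2 and Mmp9 values was not tested.

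Tnf encodes tumour necrosis factor, the cytokine that resting macrophages can transcribe within minutes of a signal. It had 250 and 235 reads with IRF2 siRNA, against 194 and 220 with control siRNA, or 9.44 and 8.62 CPM against 6.68 and 6.76 CPM. The groups did not overlap, but this was the smallest difference among the 9 effectors fitted, with a log2 fold change of 0.43 and a standard error of 0.15. It ranked 734 of 13495 by log2 fold change. The Tnf promoter window also held a TATA box, at bases -29 to -24, a motif found in 13.6% of all windows.

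Hcar2 encodes a receptor for niacin and the ketone body beta-hydroxybutyrate, expressed in fat and myeloid cells. Its single exon lies on chromosome 5 at 123863570 to 123865499 of GRCm38. It had 147 and 160 reads with IRF2 siRNA, against 29 and 44 with control siRNA, or 5.55 and 5.87 CPM against 0.999 and 1.35 CPM. The spread was 1.06-fold between the IRF2 siRNA libraries and 1.35-fold between the control libraries, and the lower IRF2 siRNA library was 4.11-fold above the higher control library. The log2 fold change of 2.27 had a standard error of 0.23. The neighbouring family member Hcar1 had 0 reads in all 4 libraries.

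Mir155hg is the long non-coding host transcript of miR-155, a microRNA of activated macrophages and lymphocytes. The host gene lies on chromosome 16 at 84703167 to 84715245 of GRCm38. It had 24 and 22 reads with IRF2 siRNA, against 1 and 3 reads with control siRNA, or 0.906 and 0.807 CPM against 0.0344 and 0.0922 CPM. The summed 46 and 4 reads gave a ratio of 13.2 with an exact Poisson 95% interval of 4.81 to 50.4. That interval covers counting error only, not the spread between replicates. Since the gene was chosen on this contrast, it is not read as a test. The fitted log2 fold change of 3.63 had a standard error of 0.58 and was 4.47 without control replicate 2 and 3.16 without control replicate 1. The gene passed the filter on low counts through the IRF2 siRNA libraries, where it was high. The row for the hairpin gene Mir155 had 0 reads in every library. Its 65 bases overlap Mir155hg exons on the same strand, where reads may be set aside as ambiguous. The 0 is therefore not read as absence, and the mature microRNA was not measured. The mature sequences of both arms, from RefSeq on GRCm38.p6, are shown with the seed, bases 2 to 8, in capitals, because the seed fixes which mRNAs can pair with each arm.
mmu-miR-155-5p: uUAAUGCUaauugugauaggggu
mmu-miR-155-3p: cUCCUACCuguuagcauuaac

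AW112010 is a long non-coding RNA by annotation, known to be induced by interferon and LPS and reported to be translated in mouse macrophages. The gene lies on chromosome 19 at 11047612 to 11055808 of GRCm38, on the minus strand. It had 1830 and 2190 reads with IRF2 siRNA, against 607 and 518 with control siRNA, or 69.1 and 80.4 CPM against 20.9 and 15.9 CPM. It was by far the most deeply read effector, with a log2 fold change of 2.02 and a standard error of 0.17. Its promoter window is shown because it held the only match to the κB consensus among the 7 windows, in capitals, read on the strand opposite to the one printed, at bases -70 to -61 before the RefSeq start. The κB consensus occurs in 4.51% of all windows. The RefSeq start lies inside the longer GENCODE gene, as it does for Mir155hg.
AW112010 promoter, chr19:11050517-11050816, minus strand: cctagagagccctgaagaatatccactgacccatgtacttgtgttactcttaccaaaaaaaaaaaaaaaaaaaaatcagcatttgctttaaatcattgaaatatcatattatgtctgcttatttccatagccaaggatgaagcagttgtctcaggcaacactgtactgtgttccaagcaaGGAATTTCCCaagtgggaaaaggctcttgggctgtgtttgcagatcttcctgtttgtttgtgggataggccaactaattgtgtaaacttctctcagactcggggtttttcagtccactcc

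**Figure D2:**
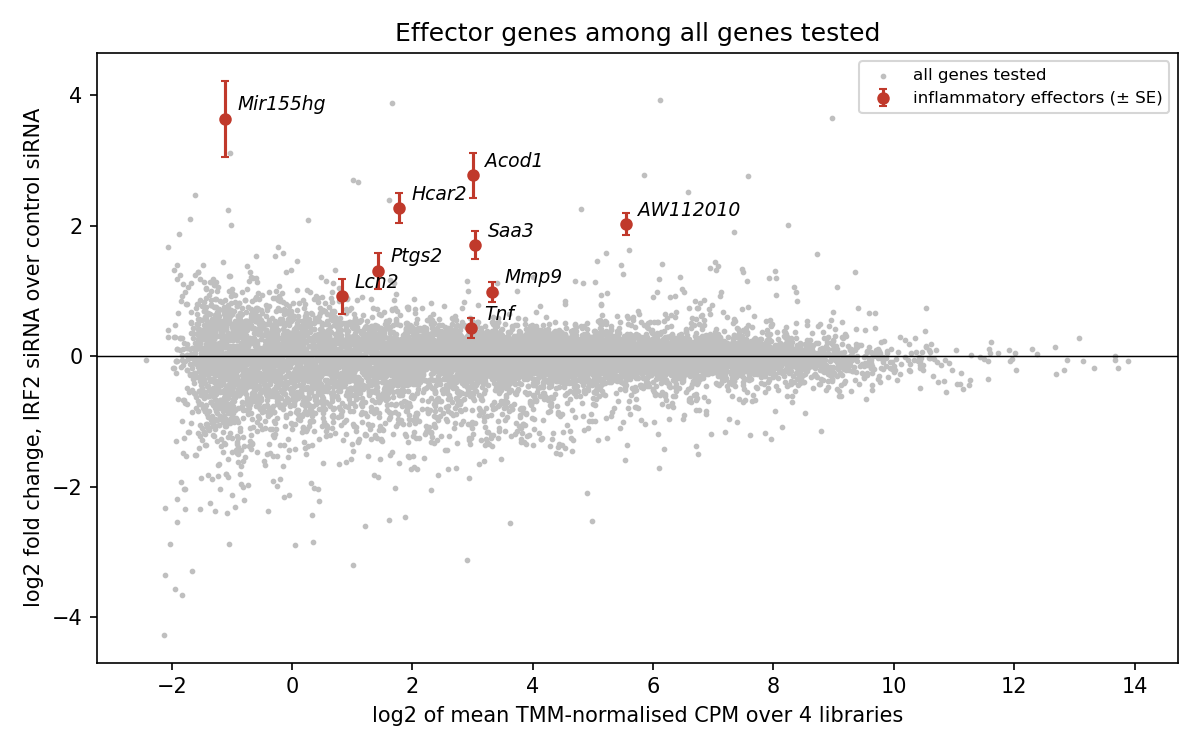
Log2 fold change, IRF2 siRNA over control siRNA, against log2 mean CPM over 4 libraries for all 13495 genes tested in grey, with the 9 effectors fitted in red and bars of ± 1 standard error. Mir155hg and Acod1 lie among the highest points, and Tnf lies nearest to 0 of the effectors.

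By the edgeR quasi-likelihood test at an adjusted p under 0.05, 0.511% of all genes tested rose with IRF2 siRNA and 1.27% fell. The test is not read for the effectors, which were chosen on this contrast. A log2 fold change above 1, which Acod1, Saa3, Mir155hg, Hcar2, AW112010 and Ptgs2 had, was seen for 0.800% of all genes tested.

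Levels of different genes were compared per kilobase of the main transcript. With IRF2 siRNA the order in mean CPM per kilobase was AW112010 at 97.1, Saa3 at 22.8, Tnf at 5.51, Acod1 at 5.32, Mmp9 at 4.19, Hcar2 at 2.96, Lcn2 at 2.55, Ptgs2 at 0.858, Mir155hg at 0.629 and Nos2 at 0.135. Tnf and Acod1 overlapped in their library values, as did Acod1 and Mmp9, and the other neighbours were apart. The gap was narrow for Hcar2 over Lcn2, 2.876 against 2.847, and for Ptgs2 over Mir155hg, 0.678 against 0.665. With control siRNA the order was AW112010 at 23.9, Saa3 at 6.997, Tnf at 4.10, Mmp9 at 2.12, Lcn2 at 1.34, Acod1 at 0.779, Hcar2 at 0.609, Ptgs2 at 0.346, Mir155hg at 0.0465 and Nos2 at 0.0251, and here Mir155hg and Nos2 overlapped. Acod1 thus ranked 4 with IRF2 siRNA and 6 with control siRNA. Over the length of all annotated exons, which is 2.606 kb for Saa3 against 0.555 kb for its main transcript, Saa3 ranked 4 in both groups. By that length Acod1 ranked 3 with IRF2 siRNA and 5 with control siRNA. Lcn2 ranked 7 with control siRNA, against 5 by its main transcript. In mean CPM over the 4 libraries, 34.2% of genes tested were at or below Acod1, 34.7% at or below Saa3, 68.8% at or below AW112010 and 4.78% at or below Mir155hg.

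The effectors did not share 1 pattern between the replicate libraries. On the log2(CPM + 1) scale, 95% of all genes tested differed by up to 0.37 between the IRF2 siRNA libraries and by up to 0.60 between the control libraries. Acod1 was higher in IRF2 siRNA replicate 2 by 0.88, Nos2 by 0.55 and Ptgs2 by 0.48, whereas Saa3 was lower there, at -0.48. Those 4 lay outside the range of most genes, and the other 6 lay within it. Among control libraries all 10 effectors lay within the range, from -0.37 for AW112010 to 0.24 for Hcar2. Mir155hg and Nos2 were too low there, at most 0.172 CPM, to leave the range on this scale. Without the added 1, the control libraries of Mir155hg differed by 2.68-fold. Within the range with IRF2 siRNA, Lcn2 had -0.24, Tnf -0.12, Mir155hg -0.08, Mmp9 -0.01, Hcar2 0.07 and AW112010 0.21.

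**Figure D3:**
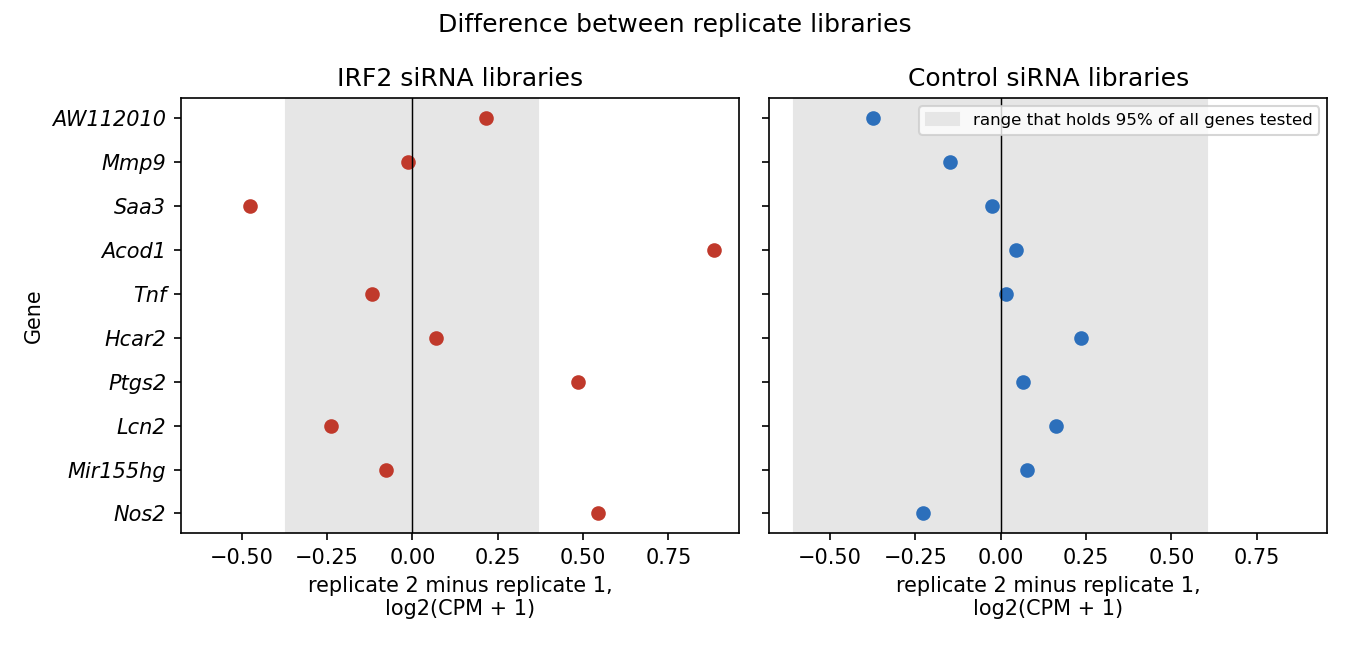
Replicate 2 minus replicate 1 on the log2(CPM + 1) scale for each effector, in the IRF2 siRNA libraries on the left and the control siRNA libraries on the right. Grey bands are the ranges that hold 95% of all genes tested. Acod1, Nos2, Ptgs2 and Saa3 lie outside the band with IRF2 siRNA. No effector lies outside it with control siRNA, where Mir155hg and Nos2 are too low to leave it on this scale.

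The effectors lay on 9 chromosomes, with Lcn2 and Mmp9 both on chromosome 2. Exons of 9 of them overlapped no other annotated gene, and those of Mir155hg overlapped the 65-base Mir155 hairpin. For 8 of the 10, no 36-base window of any annotated transcript occurred in another gene's transcripts. In Mir155hg 2.43% of windows did, and in Saa3 6.74% did.

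Whether the rest of the LPS pathway moved was asked with 11 lists of other genes, 183 in all, of which 155 could be tested. Over all lists 2 genes rose and 2 fell, which is 2.58% of those tested, against 1.79% of all genes. The median log2 fold change was 0.02, against -0.0015 for all genes. The calls were in Tlr4 and Fpr1, which rose, and in Ccl12 and Mmp13, which fell. DESeq2 called 5 in each direction, against 427 of all 12186 genes that it tested. No call in the lists was left without the filter on low counts. In edgeR with the replicate number as a block, 17 of the 155 list genes rose and 16 fell. Of all 13495 genes, 503 rose and 1018 fell in that fit. Whether the lists differ from all genes there was not tested. Counts at an unadjusted p under 0.05 are given without the share of all genes at that cut. They do not tell whether a list moved more or less than all genes. Below, counts of genes that passed come from fits without the replicate block unless it is named. With it, the TCA cycle and acute-phase lists stayed at 0. Without control replicate 1, 15 rose and 12 fell, and without control replicate 2, 16 rose and 14 fell.

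Upstream, 1 of 20 genes of LPS sensing rose and none fell. Tlr4, the LPS receptor, had 186.3 ± 18.5 CPM with IRF2 siRNA and 94.3 ± 15.7 CPM with control siRNA (SD, n = 2 each; edgeR adjusted p = 0.0278). Cd14, the co-receptor that hands LPS to the Tlr4 complex, was lower by DESeq2 but not by edgeR, where its log2 fold change was -0.51 (adjusted p = 0.131). The median of the list was 0.04. Its genes with an unadjusted p under 0.05 were 2 higher and 1 lower, and 2 rose and 1 fell with the replicate block. Of 14 NF-κB subunits and inhibitors 0 passed in edgeR, DESeq2 or limma-voom, and 2 had an unadjusted p under 0.05, both higher. With the replicate block, 2 rose and 0 fell. Nfkbie and Nfkbid, which both encode proteins of the IκB family, had log2 fold changes of 0.30 and 0.32, and the median was 0.02.

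Among 23 early LPS-response genes tested, 0 passed in edgeR and limma-voom and 1, Pim1, in DESeq2. At an unadjusted p under 0.05, 4 were higher and 5 lower, and the median log2 fold change was -0.09. With the replicate block, 5 rose and 5 fell. Pim1, a survival kinase, had 150.1 ± 6.71 CPM with IRF2 siRNA and 96.3 ± 7.28 CPM with control siRNA (SD, n = 2 each; edgeR adjusted p = 0.0543). The cytokine gene Il1a had 1.30 ± 0.0262 CPM and 0.406 ± 0.00976 CPM in the same order, with an edgeR adjusted p = 0.0703. Both overlap an antisense gene, and the strand setting of the counting is not given in the sources used here, so their values are uncertain. Il1a was also among the genes nearest in profile to Mir155hg.

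Late LPS-response genes went both ways. Of 15 tested, 1 rose and 2 fell, with a median of 0.03. The unadjusted p was under 0.05 for 4 higher and 3 lower genes, and 3 rose and 3 fell with the replicate block. Fpr1, a receptor for bacterial formyl peptides, had 35.8 ± 0.754 CPM with IRF2 siRNA and 16.1 ± 3.57 CPM with control siRNA (SD, n = 2 each; edgeR adjusted p = 0.0247). Ccl12, a monocyte chemokine, fell to 1.38 ± 0.133 CPM with IRF2 siRNA, against 4.11 ± 0.377 CPM with control siRNA, with an edgeR adjusted p = 0.0204. Mmp13, a collagenase of the same protease family as Mmp9, fell to 5.04 ± 0.0827 CPM, against 10.8 ± 1.19 CPM, with an edgeR adjusted p = 0.0244. With no filter on low counts the edgeR adjusted p was 0.112 for Tlr4, 0.0978 for Fpr1, 0.0671 for Ccl12 and 0.0751 for Mmp13, so that none of the 4 calls held.

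Of the late genes 10 had too few reads to test. Il6, which encodes interleukin 6, had 9 and 2 reads with IRF2 siRNA, against 0 and 1 with control siRNA. Il12b, which encodes the shared subunit of interleukins 12 and 23, had 2 and 2 reads, against 0 and 0. Il12a, Csf2 and Il23a had 0 reads in all 4 libraries. Ifnb1, the interferon-beta gene, had 0 and 1 reads, against 1 and 0. These genes were chosen for naming after their values were seen.

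Further lists held genes that act with Acod1, Nos2 and Tnf. For 17 genes of the TCA cycle and itaconate handling around Acod1, 0 passed in edgeR, DESeq2 or limma-voom and 0 had an unadjusted p under 0.05, with a median of 0.06. Aco1, a cytosolic aconitase, and Sdhb, a subunit of the succinate dehydrogenase that itaconate inhibits, had log2 fold changes of 0.27 and 0.19. For 11 genes of nitric oxide and arginine metabolism around Nos2, 0 passed with the 3 tools. At an unadjusted p under 0.05, 2 were lower, and with the replicate block 0 rose and 2 fell. Ass1 and Gch1, which supply arginine and the cofactor tetrahydrobiopterin, had log2 fold changes of -0.65 and -0.35. For 14 genes of TNF release and signalling, 0 passed with the 3 tools. At an unadjusted p under 0.05, 1 was higher and 2 lower, and with the replicate block 1 rose and 2 fell. Rhbdf2, which traffics the TNF-releasing protease, had 0.39 and Zfp36l1, which destabilises AU-rich mRNAs, -0.32. Exons of Zfp36l1 overlap an antisense gene over 1672 of 2990 bases, so its value is uncertain.

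Prostaglandin and leukotriene genes had the highest median of the 11 lists, 0.22 over 13 genes, with 10 above 0. Of the 11567 genes tested with an annotated 3′ UTR, 50.8% lay above 0. The list was singled out after the medians were seen, and no test was made of it. None passed in edgeR or limma-voom, and 3 were higher and 1 lower at an unadjusted p under 0.05. With the replicate block 3 rose and 1 fell, and DESeq2 called 2 higher. Those 2 were Pla2g4a, the phospholipase that frees arachidonic acid, and Ptgs1, the constitutive cyclooxygenase. Pla2g4a had 22.0 ± 2.72 CPM with IRF2 siRNA and 12.9 ± 1.37 CPM with control siRNA (SD, n = 2 each; edgeR adjusted p = 0.0745). Ptgs1 had 65.4 ± 2.31 CPM and 45.5 ± 0.288 CPM in the same order, with an edgeR adjusted p = 0.0864. Exons of Ptgs1 overlap an antisense gene, so its value is uncertain.

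Among 8 testable acute-phase and secreted antimicrobial genes, 0 passed in edgeR, DESeq2 or limma-voom and 0 had an unadjusted p under 0.05, with a median of 0.18. Hp, which encodes the haemoglobin-binding protein haptoglobin, had a log2 fold change of 0.94 and Slc22a17, a receptor reported for lipocalin 2, -0.57. Of 10 metalloproteinases and their inhibitors, Mmp13 alone fell in edgeR and none rose, with a median of -0.10. The unadjusted p was under 0.05 for 0 higher and 3 lower genes, and 0 rose and 2 fell with the replicate block. Mmp12, the macrophage elastase, was called lower by DESeq2 as well, with -0.69 on the log2 scale and an edgeR adjusted p = 0.135. Exons of Mmp12 overlap the antisense gene Mmp1b over 157 bases, so its value is uncertain. Whether Mmp9 differed from these genes was not tested.

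**Figure D4:**
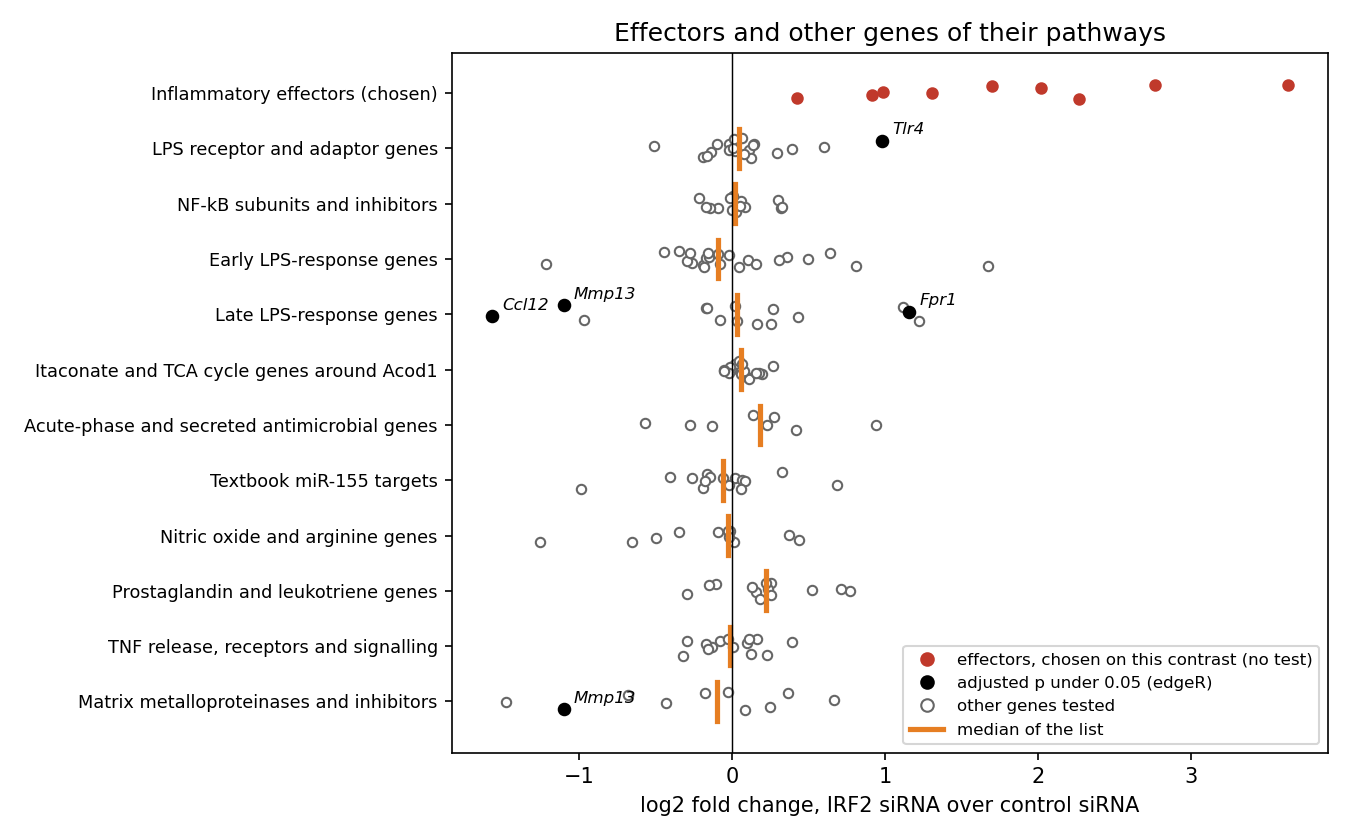
Log2 fold change, IRF2 siRNA over control siRNA, of each gene tested in the 11 pathway lists, below the 9 effectors fitted in red, which were chosen on this contrast. Black points passed an adjusted p under 0.05 in edgeR, and orange bars are list medians, which lie between -0.10 and 0.22.

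MicroRNAs lower mRNAs that they pair with, so textbook targets of miR-155 were read beside its host gene. Of 15 tested, 0 passed in edgeR or limma-voom and 1, Ets1, was called lower by DESeq2. At an unadjusted p under 0.05, 1 was higher and 2 lower, and the median log2 fold change was -0.06. With the replicate block, 1 rose and 2 fell. Ets1, a transcription factor, had 4.82 ± 0.176 CPM with IRF2 siRNA and 9.55 ± 1.96 CPM with control siRNA (SD, n = 2 each; edgeR adjusted p = 0.0696). Jarid2, a partner of the Polycomb complex, had a log2 fold change of -0.41.

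Of the 15 targets, 8 carry in the 3′ UTR of their main transcript the 8-base string AGCATTAA, which pairs with the miR-155-5p seed and ends opposite its first base. Those 8 had a median of -0.18 and 2 lay above 0, and the other 7 had a median of 0.06. Over all genes tested, 345 held the string, with a median of -0.02 and 45.2% above 0, against 50.8% of 11567 genes with an annotated 3′ UTR. Of the 345, 2 rose and 1 fell in edgeR, or 0.87%, against 1.99% of the 11567. The search was added after the values were seen and no test was made of it. Genes with and without the string were not matched for 3′ UTR length or level. Sites are shown for Ets1 and Jarid2, the targets with the smallest p, and for Inpp5d. Inpp5d encodes the phosphatase SHIP1 and was picked after its values were seen. Jarid2 holds a further site, on chromosome 13 at 44920855 to 44920884, that is not shown. Sequences are from GENCODE transcripts on GRCm38, with the 8 paired bases in capitals.
Ets1 site, chr9:32757197-32757226, plus strand: ctgggttttaaAGCATTAAccttcatggtg
Jarid2 site, chr13:44920082-44920111, plus strand: gattttgttttAGCATTAAactgttcaagt
Inpp5d site, chr1:87719827-87719856, plus strand: tgtttttaaaaAGCATTAAagaaaaccatc

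The 4 genes nearest to an effector in profile were found by the Euclidean distance of log2(CPM + 1), centred per gene, over the 4 libraries. For Acod1 these were Gbp5, Clic5, Klra2 and Gbp7, at distances of 0.475 to 0.637. Gbp5, an interferon-induced GTPase, had 142.9 and 183.6 CPM with IRF2 siRNA, against 25.6 and 31.6 CPM with control siRNA. For Saa3 they were Parp10, Ifit3b, Psme2 and Ifit3, at 0.307 to 0.35, and Ifit3, an antiviral protein, had 945.5 and 914.9 CPM, against 388.3 and 371.2 CPM. Klra2, Psme2, Trim12c and genes of the Gbp and Ifit families have close paralogs, so the split of reads among them is uncertain. For Mir155hg, whose centred values are small because of the added 1, they were Trim12c, Dmpk, Il1a and Pald1, at 0.101 to 0.121, and Trim12c had 133.1 and 132.2 CPM, against 75.8 and 83.8 CPM. These genes were picked by likeness to effectors that differ between the groups, so their own differences are a description.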

How the data were processed

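RNA-seq read counts per gene were analysed in 4 libraries of mouse macrophages, 2 with IRF2 siRNA and 2 with control siRNA, grouped by the siRNA in their labels. The deposited table holds raw counts, 1 column per library. Per the submitters' processing notes, the tools were bcl2fastq 2.18.0.12, STAR 2.5.2b, HTSeq 0.6.0 and DESeq2 (no version), with the mm10 build. The sources used here name neither the annotation release nor the strand setting. The 5 summary rows that name no gene were left out of library sizes and tests: reads in no gene were 5.07 to 6.85% of column totals, ambiguous reads 4.17 to 4.71%, multiply aligned reads 12.5 to 15.0%, and the other 2 rows were 0. Symbols, coordinates, exon lengths and transcripts came from the GRCm38 (mm10) annotation of GENCODE M21. Promoter windows, 250 bases before to 50 after a start, and miRNAs are from RefSeq on GRCm38.p6.

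Counts were fitted in R 4.3.3 with edgeR 4.0.16: filterByExpr (minimum count 10, minimum total 15, 13495 genes left), TMM, glmQLFit with legacy = FALSE and glmQLFTest on the siRNA group, with Benjamini-Hochberg adjustment over all genes tested and calls at 0.05. The biological coefficient of variation was 12.6%. A standard error is |log2 fold change| over the root of its F statistic. CPM are TMM-normalised and given as mean ± SD over libraries. Intervals and read limits cover counting error only. An exact permutation test of 2 against 2 libraries cannot go below a two-sided p = 0.333, so none was used. Alternatives were DESeq2 1.42.0, limma-voom (limma 3.58.1), other scalings and filters, the replicate number as a block, and leaving out each library. The procedure was tested on simulated counts, drawn independently for each library with a common dispersion. That simulation does not cover deviations shared by same-numbered libraries, and nothing is concluded from it here.

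The effectors and lists were chosen with earlier results of these data known. Named are all effectors, Irf2, up to 4 called genes of each list with the smallest p (or the 2 smallest where none was called), the 4 highest markers of a list, paralogs, and the nearest profiles. Others are marked as named after their values were seen.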

Additional observations from a re-analysis of the deposited data

How the results depend on the processing

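Among all genes, 241 were called (69 rose, 172 fell). With no filter on low counts 72 were called (31 rose, 41 fell), with DESeq2 427 (120 rose, 307 fell) and with the replicate number as a block 1521 (503 rose, 1018 fell). Leaving out 1 library gave 237 to 1770 calls, of which 62 to 710 rose and 171 to 1060 fell. The high values came without control replicate 1, with 1424, and without control replicate 2, with 1770. In the pathway lists 2 genes rose and 2 fell. Both counts were 0 with no filter, 5 with DESeq2, and 17 and 16 with the replicate block. Leaving out 1 library gave 2 to 16 that rose and 2 to 14 that fell. The cause was not tested. The other scalings, the filter at 1 CPM and limma-voom kept these counts within 1.5 times.

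The labels name no pairing, so the replicate number was not taken as a block. Differences between replicates 1 and 2 of the 2 groups correlated at 0.735 across 8449 genes. Same-numbered libraries thus deviated together, and without a block that shared part counts as spread between replicates. What these libraries share was not tested. The 98 alternative values of effector log2 fold changes were all above 0, a direction that their choice on this contrast fixes. Of these, 19 moved by more than the SD of log2(CPM + 1) between replicates. The added 1 shrinks that SD for genes with few reads. Mir155hg was thus counted as moved with DESeq2, at 3.73 against 3.63 with a standard error of 0.58. Levels below about 1 CPM, as for Mir155hg and Nos2, rest on few reads and limit what can be said of them.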
